A study of Mus musculus with 10 samples.

Results

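The genes described here carry glucose into brain cells, break it down to pyruvate, exchange pyruvate with lactate, move lactate across cell membranes and admit pyruvate to the mitochondrion. The list held 34 genes, and a gene was given a value where the platform annotation assigns a probe set to its symbol alone. Where a gene had several such probe sets, the brightest over all arrays stood for it. By this rule 30 of the 34 genes had a value, out of 19938 named genes on 28944 probe sets tested. Gpi1, Eno1 and Mpc2 matched no row under these names, and Gapdh stands only on 25 probe sets that the annotation shares with other genes. These 4 genes are not analysed here.

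Whole-brain RNA was measured in 5 mice that overexpress Glo1 from a bacterial artificial chromosome transgene (Tg) and in 5 wild-type littermates (WT), with 1 Affymetrix gene array per sample. Both groups were male adults of C57Bl/6J background, housed in groups and left untreated. The labels used here name neither the founder line, the transgene copy number nor the cells that express the transgene. They call the samples of a group biological replicates and say no more about their separation, so every p-value below rests on the spread between these samples. The p-values and confidence intervals from limma also draw on the spread of all probe sets tested. Values are the deposited log2 expression values, and a difference is the Tg mean minus the WT mean in log2 units.

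Glycolysis turns glucose into pyruvate in the cytosol, and in brain it feeds both the mitochondria of neurons and the lactate that astrocytes are known to release. Most of its steps can be run by several isozymes, products of separate genes that differ in regulation and in the cell types that express them. Glo1 encodes glyoxalase 1, which removes methylglyoxal, a reactive compound that forms from the triose phosphates in the middle of this pathway.

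Glo1 itself was read at 11.88 to 12.23 on the 5 Tg arrays and at 10.27 to 10.75 on the 5 WT arrays, a difference of 1.51 or 2.85-fold (limma, Benjamini-Hochberg adjusted p = 3.5e-05); all 5 Tg arrays lay above all 5 WT arrays, as their labels have it. Brain markers were bright on every array, with a mean over 8 neuronal genes of 12.23 to 12.28 and over 8 astrocyte genes of 10.49 to 10.58. The array labelled WT replicate 2 stood apart from the other 9. Its correlation with another array, averaged over the others, was 0.992, against 0.994 to 0.997 for the rest. Its mean over 12 of 12 cerebellar marker genes was 8.45, against 10.68 to 10.78 on the other WT arrays and 10.53 to 10.62 on the Tg arrays. Its mean over 5 of 6 pituitary genes was 10.71, against 6.85 to 7.01 on the other WT arrays. Tg replicate 2 read 10.28 for the same pituitary genes and the other Tg arrays 6.91 to 7.25. On WT replicate 2 the mean over 2 of 5 red blood cell genes was 8.99, against 7.73 to 7.92 on the other WT arrays and 7.66 to 7.82 on the Tg arrays. The mean over 6 skeletal muscle genes was 7.48 on WT replicate 2 and 7.19 to 7.36 on the other 9 arrays. For 7 of 8 microglial genes it was 9.07 against 8.84 to 8.98, and for 7 choroid plexus genes 9.27 against 9.32 to 9.51. The mean over 6 of 8 striatal genes was 11.05 on WT replicate 2, 10.90 to 10.94 on the other WT arrays and 10.84 to 10.88 on the Tg arrays, so the Tg arrays lay below the other WT arrays for the cerebellar and the striatal lists. No marker of these lists was read at 0, but the lowest log2 value of any row was 3.28, so this cannot show whether a tissue was absent. The part of these tissues in the results below was not tested, and the differences of the 30 genes are given with and without WT replicate 2. In whole-brain RNA, fewer cells of a type and less RNA per cell cannot be told apart.

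Glycolysis genes were among the brightest on the array, and none passed the test between Tg and WT brain. Of the 30 genes, 17 lay in the upper 10% of named genes by mean log2 value and 25 lay above the median gene, which was read at 8.26. Means ran from 7.33 for Hk2 to 13.20 for Aldoc. The groups could not be separated for any of the 30: 0 passed limma at a Benjamini-Hochberg adjusted p under 0.05, where 9 of all 19938 genes did (0.0451%), and for 0 did the values of the groups fail to overlap, where this held for 0.471% of all genes. The adjusted p rounded to 1 for each of the 30, and the unadjusted p ran from 0.0433 for Pfkfb2 and 0.152 for Ldhb to 0.99 for Pdk3. At an unadjusted p under 0.05 there was 1, Pfkfb2, with the lower mean in Tg brain. Of all genes 1.98% reached that level in either direction and 1.02% with the lower mean in Tg.

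Without WT replicate 2, again 0 of the 30 passed the adjusted test, where 10 of all genes did (0.0502%), and 0 reached an unadjusted p under 0.05, where 10.8% of all genes did. The lowest adjusted p among the 30 was then 0.501 by limma, and again 0 had groups that did not overlap, where 3.34% of all genes did. Without Tg replicate 2 in place of it, 0 passed the adjusted test, Pfkfb2 was again the 1 gene at an unadjusted p under 0.05 (difference -0.15), 5 genes changed sign, and the median difference of the 30 was 0.0007.

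The differences ran from -0.13 for Pfkfb2 to 0.067 for Ldhb, and 25 of the 30 lay within 0.05 of 0. Every 95% confidence interval lay between -0.25 and 0.195. A Tg level below 84.3% or above 114.4% of the WT level thus lay outside the interval of each of these probe sets. These are 30 separate intervals without joint coverage. Without WT replicate 2 all intervals lay between -0.22 and 0.192. The median size of a difference, whatever its sign, was 0.018 over the 30 genes and 0.036 over all genes, with median standard errors of 0.056 and 0.061. By sign, 12 means were higher and 18 lower in Tg brain, with a median difference of -0.011 against -0.0034 over all genes. Without WT replicate 2 there were 16 higher and 14 lower, 10 genes changed sign, and the median was 0.0036 against 0.006.

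**Figure D1:**
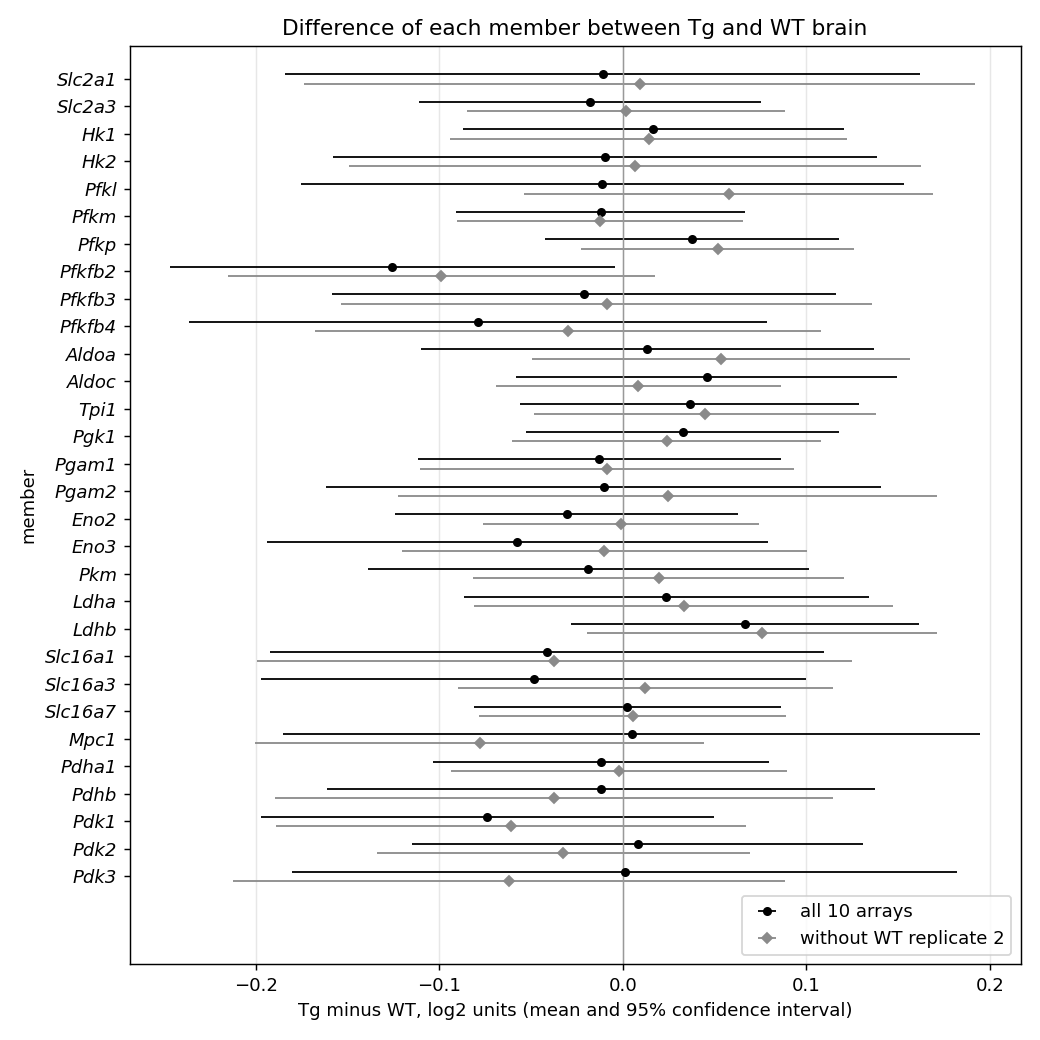
Difference between Tg and WT brain for each of the 30 genes in pathway order, in log2 units on the horizontal axis, as mean and 95% confidence interval, from all 10 arrays (black, 5 Tg and 5 WT) and without WT replicate 2 (grey, 5 Tg and 4 WT). The black interval of Pfkfb2, from -0.25 to -0.0044, is the only interval in the plot that leaves out 0.

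The order of isozymes at each step is an order of probe set brightness. Probes differ in how well they bind, so brightness does not count molecules, and no test was made between probe sets. Of the 17 steps listed, 11 had several measured genes, and the ranges of neighbours in the order were separate over the 10 arrays at each of them but the aldolases and the lactate dehydrogenases.

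**Figure D2:**
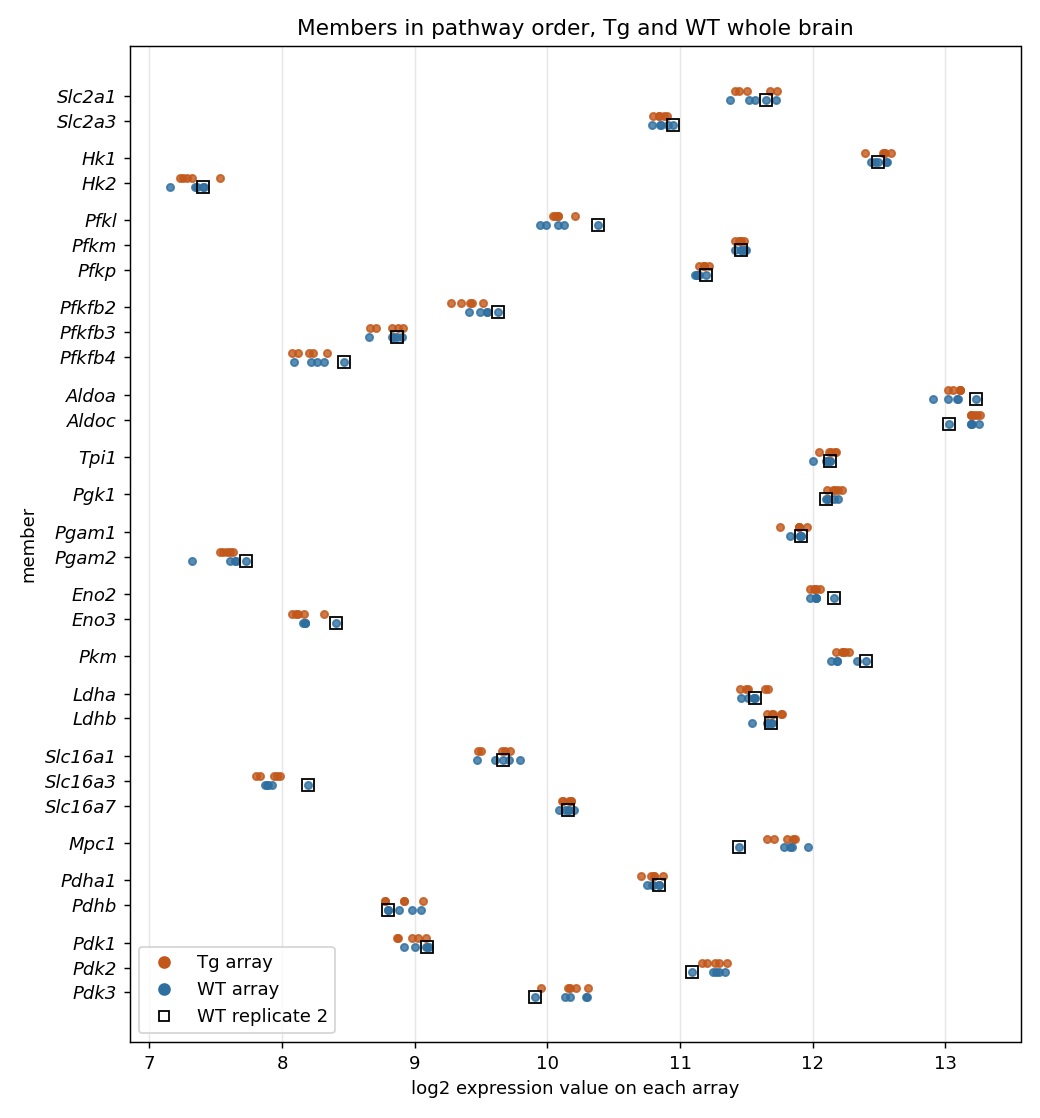
Log2 expression value of each of the 30 genes on each array, in pathway order from glucose carriers at the top to pyruvate dehydrogenase kinases at the bottom, with 1 point per array, Tg in orange, WT in blue and WT replicate 2 boxed. The Tg and WT points of each gene overlap, while Hk2, Pgam2 and Eno3 lie furthest to the left of the brightest gene of their step.

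Glucose enters the brain through facilitative carriers. Slc2a1 encodes GLUT1, the carrier of the blood-brain barrier and of glia, and Slc2a3 encodes GLUT3, the carrier of neurons. Slc2a1 read 11.50, 11.44, 11.42, 11.68 and 11.73 on Tg replicates 1 to 5 and 11.57, 11.65, 11.52, 11.38 and 11.72 on WT replicates 1 to 5. Tg replicates 4 and 5 and WT replicate 5 were the highest arrays, WT replicate 4 was the lowest, and the groups overlapped. Slc2a1 thus had means of 11.55 ± 0.14 (SD, n = 5) in Tg and 11.57 ± 0.13 (SD, n = 5) in WT brain. The difference was -0.011 (95% confidence interval -0.18 to 0.16; limma, unadjusted p = 0.891, adjusted p = 1), and 0.0091 without WT replicate 2. Slc2a3 had a mean of 10.86, lay below Slc2a1 on all 10 arrays and differed by -0.018 (0.0018 without WT replicate 2). The mean over 7 of 8 brain endothelial markers, the cells in which GLUT1 is known to be abundant, was 9.41 to 9.46 on the Tg arrays, 9.37 to 9.43 on the other WT arrays and 9.32 on WT replicate 2.

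Hexokinase traps glucose in the cell as glucose-6-phosphate. Hk1 is the main form of brain and Hk2 the insulin-responsive form of muscle and fat. The log2 values of Hk1 were 12.53, 12.54, 12.59, 12.54 and 12.39 in Tg and 12.56, 12.49, 12.56, 12.44 and 12.47 in WT brain, replicates 1 to 5. Tg replicate 5 was the lowest, and the other 9 arrays of both groups overlapped between 12.44 and 12.59. This gave 12.52 ± 0.075 (SD, n = 5) in Tg and 12.50 ± 0.054 (SD, n = 5) in WT brain, a difference of 0.017 (95% confidence interval -0.087 to 0.12; limma, unadjusted p = 0.735, adjusted p = 1) that became 0.014 without WT replicate 2. This brightest probe set is uncertain: the annotation pairs it with 1 accession, which also stands on all 16 probe sets shared between Hk1 and the ribosomal gene Rpl17. The other Hk1 probe set carries 8 accessions, was dimmer with a mean of 10.87, and gave 10.83 ± 0.080 (SD, n = 5) in Tg and 10.91 ± 0.075 (SD, n = 5) in WT brain. Its difference of -0.082 (95% confidence interval -0.20 to 0.032) has the opposite sign to that of the brightest set, and limma gave an unadjusted p of 0.144 and an adjusted p of 1. It was -0.088 without WT replicate 2. Hk2 had a mean of 7.33, the dimmest of the 30 genes, and lay below both Hk1 probe sets on all 10 arrays. Its difference was -0.0098 (0.0068 without WT replicate 2).

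Phosphofructokinase commits the sugar to glycolysis, and its subunits are the muscle (Pfkm), platelet (Pfkp) and liver (Pfkl) types. Pfkm was the brightest, Pfkp next and Pfkl last, with no exchange of places on any of the 10 arrays. On the 5 Tg arrays Pfkm read 11.45, 11.46, 11.48, 11.42 and 11.45, and on the 5 WT arrays 11.46, 11.46, 11.50, 11.48 and 11.41, in replicate order. Pfkm had the smallest SD over the 10 arrays among the 30 genes, 0.028, and the groups overlapped. The means of Pfkm were 11.45 ± 0.023 (SD, n = 5) in Tg and 11.46 ± 0.033 (SD, n = 5) in WT brain, and their difference of -0.012 (95% confidence interval -0.091 to 0.067) did not pass the test (limma, unadjusted p = 0.741, adjusted p = 1; -0.012 without WT replicate 2). Pfkp read 11.18, 11.18, 11.14, 11.22 and 11.18 on Tg replicates 1 to 5 and 11.12, 11.20, 11.15, 11.13 and 11.11 on WT replicates 1 to 5. Every Tg value was at or above 11.14, 3 of the 5 WT values were below that, and the groups overlapped through WT replicates 2 and 3. Pfkp thus had means of 11.18 ± 0.028 (SD, n = 5) in Tg and 11.14 ± 0.033 (SD, n = 5) in WT brain. The difference was 0.038 (95% confidence interval -0.042 to 0.12; limma, unadjusted p = 0.325, adjusted p = 1), and 0.052 without WT replicate 2. Pfkl had a mean of 10.10 and its highest value, 10.38, on WT replicate 2, which is 0.34 above the mean of the other WT arrays. Its difference was -0.011 with that array and 0.058 without it.

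The Pfkfb genes encode the bifunctional enzymes that make and remove the strongest allosteric activator of phosphofructokinase. Pfkfb2, known as the heart form, was the brightest, then Pfkfb3, a form that hypoxia is known to induce, then Pfkfb4, and the order held on all 10 arrays. The log2 values of Pfkfb2 were 9.43, 9.51, 9.42, 9.28 and 9.35 in Tg and 9.49, 9.63, 9.54, 9.54 and 9.41 in WT brain, replicates 1 to 5. Tg replicates 4 and 5 were the lowest of the 10 arrays and WT replicate 2 the highest. WT replicates 1 and 5 lay inside the Tg range, and Tg replicates 1, 2 and 3 inside the WT range. The means were 9.40 ± 0.089 (SD, n = 5) in Tg and 9.52 ± 0.081 (SD, n = 5) in WT brain, so Tg stood at 91.7% of the WT level, with a difference of -0.13 (95% confidence interval -0.25 to -0.0044). Limma gave an unadjusted p of 0.0433 and a Benjamini-Hochberg adjusted p of 1, and the two-sided exact permutation test over all assignments of 5 and 5 arrays gave p = 0.0556. Without WT replicate 2 the difference was -0.099, with an unadjusted limma p of 0.0883 and an adjusted p of 0.501. Leaving out single arrays moved the difference between -0.15 and -0.095, and the unadjusted p stayed under 0.05 when Tg replicate 2 or WT replicate 5 was left out and passed it when any other array was.

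The mean of Pfkfb4 was also lower in Tg brain. On the 5 Tg arrays Pfkfb4 read 8.12, 8.34, 8.20, 8.07 and 8.23, and on the 5 WT arrays 8.27, 8.47, 8.21, 8.32 and 8.09, in replicate order. WT replicate 2 was the highest array, Tg replicate 2 the next, and the groups overlapped. This gave 8.19 ± 0.10 (SD, n = 5) in Tg and 8.27 ± 0.14 (SD, n = 5) in WT brain, a difference of -0.079 (95% confidence interval -0.24 to 0.079; limma, unadjusted p = 0.295, adjusted p = 1) that became -0.030 without WT replicate 2. Pfkfb3 had a mean of 8.81 and a difference of -0.021 (-0.0089 without WT replicate 2).

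Promoter sequences show what letters stand in front of these genes. Hypoxia-inducible factor, a textbook regulator of glycolysis genes, is known to bind sites with the core ACGTG or GCGTG. RefSeq promoters of assembly GRCm38.p6 matched 28 of the 30 genes and gave 43 promoters, since some genes have several starts. In the 250 bases before the start, on either strand, ACGTG stood in 44.2% of the 43 promoters and in 16.6% of all 32851 promoters, and GCGTG in 51.2% and 28.2%. Either core stood in 76.7% of the 43 and in 38.6% of all. CACGTG, which contains ACGTG on each strand, stood in 14.0% and 6.02%. The promoters of these genes are also richer in G and C, with a median of 61.6% against 52.4% and a median of 14 CpG against 6, and TATAAA stood in 2.33% against 12.4%. GGGCGG, a core bound by Sp1, stood in 48.8% against 32.7%. A match is a run of letters and not a measured binding site, and promoters of the same gene can overlap.
Shown are the Pfkfb2 promoter with the most matches among its 3, since Pfkfb2 had the lowest p of the 30, and those of the lactate dehydrogenase pair Ldha (the richer of its 2) and Ldhb, whose ranges of brightness overlapped. They are the 250 bases before the start, 5′ to 3′ on the strand of the gene, with both cores and their reverse complements in capitals. Their places are chr1:130715822-130716071 on the minus strand for Pfkfb2, chr7:46845554-46845803 on the plus strand for Ldha and chr6:142507958-142508207 on the minus strand for Ldhb.
Pfkfb2: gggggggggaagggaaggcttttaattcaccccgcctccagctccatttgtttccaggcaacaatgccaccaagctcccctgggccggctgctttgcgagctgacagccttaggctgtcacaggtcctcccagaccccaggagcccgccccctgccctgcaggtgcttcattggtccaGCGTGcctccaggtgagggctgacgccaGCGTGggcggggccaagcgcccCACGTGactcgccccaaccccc
Ldha: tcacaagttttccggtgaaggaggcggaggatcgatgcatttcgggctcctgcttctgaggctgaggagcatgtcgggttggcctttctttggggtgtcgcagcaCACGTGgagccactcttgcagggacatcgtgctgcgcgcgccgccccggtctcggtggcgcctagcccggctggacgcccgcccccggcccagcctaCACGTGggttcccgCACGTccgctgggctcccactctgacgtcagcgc
Ldhb: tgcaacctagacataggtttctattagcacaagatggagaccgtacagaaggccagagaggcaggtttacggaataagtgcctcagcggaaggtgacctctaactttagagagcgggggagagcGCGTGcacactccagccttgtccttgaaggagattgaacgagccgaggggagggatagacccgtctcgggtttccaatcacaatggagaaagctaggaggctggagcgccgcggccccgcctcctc
The Ldha promoter holds CACGTG 2 times and ACGTG 1 more time on the other strand, the Pfkfb2 promoter holds CACGTG 1 time and GCGTG 2 times, and the Ldhb promoter holds GCGTG 1 time and no ACGTG in this window.

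Aldolase splits the sugar into the triose phosphates from which methylglyoxal forms. Aldoc, the form of astrocytes and Purkinje cells, and Aldoa, the muscle and general form, were the brightest genes of the 30 and could not be ordered. Aldoc read 13.21, 13.19, 13.26, 13.19 and 13.24 on Tg replicates 1 to 5 and 13.19, 13.02, 13.25, 13.20 and 13.19 on WT replicates 1 to 5. WT replicate 2 was the lowest array, and the other 9 overlapped between 13.19 and 13.26. The means of Aldoc were 13.22 ± 0.030 (SD, n = 5) in Tg and 13.17 ± 0.087 (SD, n = 5) in WT brain, and their difference of 0.046 (95% confidence interval -0.058 to 0.15) did not pass the test (limma, unadjusted p = 0.355, adjusted p = 1; 0.0084 without WT replicate 2). Aldoa had a mean of 13.07, and its WT replicate 2 value, 13.23, was the highest of 10. Aldoc was brighter than Aldoa on 9 arrays, and on WT replicate 2 the order was turned: the log2 ratio of Aldoa to Aldoc was 0.20 there and between -0.29 and -0.079 on the other 9. The mean of 8 astrocyte markers on WT replicate 2 was 10.49, against 10.51 to 10.58 on the Tg arrays and 10.54 to 10.58 on the other WT arrays. That of 12 cerebellar markers was 8.45, against 10.53 to 10.62 on the Tg arrays and 10.68 to 10.78 on the other WT arrays. The part of either cell source in the turned order was not tested. The difference of Aldoa was 0.013 (0.053 without WT replicate 2).

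Tpi1 interconverts the triose phosphates, and its loss of function is known to raise methylglyoxal. The log2 values of Tpi1 were 12.17, 12.05, 12.13, 12.17 and 12.14 in Tg and 12.11, 12.13, 12.13, 12.10 and 12.01 in WT brain, replicates 1 to 5. Tg replicate 2 and WT replicate 5 were the lowest arrays of their groups, and the other 8 lay between 12.10 and 12.17. Tpi1 thus had means of 12.13 ± 0.051 (SD, n = 5) in Tg and 12.09 ± 0.051 (SD, n = 5) in WT brain. The difference was 0.036 (95% confidence interval -0.056 to 0.13; limma, unadjusted p = 0.408, adjusted p = 1), and 0.045 without WT replicate 2.

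Phosphoglycerate kinase makes the first ATP of the pathway and phosphoglycerate mutase moves its phosphate. Pgk1 had a mean of 12.15 and a difference of 0.033 (0.024 without WT replicate 2). Another of its 3 probe sets held identical values on all 10 arrays, and the third differed from it by at most 0.068. Of these probe sets only the third lies among rows of the gene's own chromosome, and its difference was 0.037 (0.031 without WT replicate 2). Pgam1, the brain form, was far brighter than Pgam2, the muscle form, on all 10 arrays. On the 5 Tg arrays Pgam1 read 11.90, 11.90, 11.96, 11.89 and 11.75, and on the 5 WT arrays 11.83, 11.91, 11.91, 11.90 and 11.91, in replicate order. Tg replicate 5 was the lowest array and the groups overlapped. This gave 11.88 ± 0.077 (SD, n = 5) in Tg and 11.89 ± 0.034 (SD, n = 5) in WT brain, a difference of -0.013 (95% confidence interval -0.11 to 0.086; limma, unadjusted p = 0.78, adjusted p = 1) that became -0.0087 without WT replicate 2. Its 2 other probe sets were identical to each other, with a mean of 11.64 and a difference of 0.0039 (0.0023 without WT replicate 2). Among them was the probe set on rows of the gene's own chromosome. Pgam2 had a mean of 7.59, and its difference was -0.010 (0.024 without WT replicate 2). The brightest probe sets of Hk1, Pgk1 and Pgam1 and that of Mpc1 lie in the platform's row order among genes of another chromosome, so signal from near-identical copies cannot be told apart from that of these 4 genes.

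Enolase and pyruvate kinase complete the run to pyruvate. Eno2 is the neuronal enolase and Eno3 the muscle form, and Eno2 was the brighter on all 10 arrays. Eno1 has no value here and is not part of this order. Eno2 read 12.02, 12.01, 12.05, 11.98 and 12.01 on Tg replicates 1 to 5 and 12.03, 12.16, 12.03, 12.03 and 11.98 on WT replicates 1 to 5. WT replicate 2 lay above the other 9 arrays, which fell between 11.98 and 12.05. The means of Eno2 were 12.01 ± 0.027 (SD, n = 5) in Tg and 12.04 ± 0.069 (SD, n = 5) in WT brain, and their difference of -0.031 (95% confidence interval -0.12 to 0.063) did not pass the test (limma, unadjusted p = 0.486, adjusted p = 1; -0.0012 without WT replicate 2). The log2 values of Eno3 were 8.17, 8.32, 8.10, 8.12 and 8.08 in Tg and 8.17, 8.41, 8.16, 8.17 and 8.17 in WT brain, replicates 1 to 5. WT replicate 2 was again the highest, and the other WT arrays lay between 8.16 and 8.17, inside the Tg range. Eno3 thus had means of 8.16 ± 0.095 (SD, n = 5) in Tg and 8.22 ± 0.11 (SD, n = 5) in WT brain. The difference was -0.058 (95% confidence interval -0.19 to 0.079; limma, unadjusted p = 0.375, adjusted p = 1), and -0.010 without WT replicate 2. Pkm, the pyruvate kinase of brain and muscle, had a mean of 12.24, its highest value on WT replicate 2 (12.40), and a difference of -0.019 (0.019 without WT replicate 2). The other Pkm probe set was dimmer, with a mean of 11.20 and a difference of the opposite sign, 0.0092 (0.054 without WT replicate 2). Unlike the brightest, it lies in the platform's row order among genes of another chromosome. Signal from near-identical copies thus cannot be told apart from that of Pkm in it.

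Lactate dehydrogenase exchanges pyruvate and lactate. Ldhb, the subunit of the heart-type enzyme, had the higher mean and Ldha, the muscle-type subunit, the lower, but their ranges over the 10 arrays overlapped. On the 5 Tg arrays Ldhb read 11.66, 11.70, 11.69, 11.76 and 11.76, and on the 5 WT arrays 11.69, 11.69, 11.66, 11.55 and 11.65, in replicate order. Tg replicates 4 and 5 were the highest arrays and WT replicate 4 the lowest, while Tg replicates 1 and 3 lay inside the WT range. This gave 11.72 ± 0.047 (SD, n = 5) in Tg and 11.65 ± 0.060 (SD, n = 5) in WT brain, a difference of 0.067 (95% confidence interval -0.028 to 0.16; limma, unadjusted p = 0.152, adjusted p = 1) that became 0.076 without WT replicate 2. The exact permutation test, two-sided, gave p = 0.0714, unadjusted. The second Ldhb probe set, with a mean of 11.56, gave a difference of 0.026, and of 0.057 without WT replicate 2. Unlike the brightest, this second set lies in the platform's row order among genes of another chromosome. Signal from near-identical copies thus cannot be told apart from that of Ldhb in it. Ldha had a mean of 11.54 and a difference of 0.024 (0.033 without WT replicate 2). Within an array Ldha was below the brightest Ldhb probe set on all 10. Their log2 ratio was -0.16 ± 0.046 (SD, n = 5) in Tg and -0.12 ± 0.027 (SD, n = 5) in WT brain, and the ratios of the groups overlapped. Against the second Ldhb probe set the order was mixed. Ldha was higher on Tg replicates 4 and 5 and WT replicates 3 and 5, and lower on the rest. On Tg replicate 5 it read 11.66 against 11.57.

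Monocarboxylate carriers move lactate between cells. Slc16a7 encodes MCT2, the carrier of neurons, Slc16a1 encodes MCT1, that of endothelium and glia, and Slc16a3 encodes MCT4, that of astrocytes and glycolytic tissue. Slc16a7 was the brightest, Slc16a1 next and Slc16a3 last on all 10 arrays. Slc16a7 read 10.18, 10.18, 10.12, 10.16 and 10.11 on Tg replicates 1 to 5 and 10.13, 10.16, 10.16, 10.20 and 10.09 on WT replicates 1 to 5. All 10 arrays lay between 10.09 and 10.20, and the groups overlapped. The means of Slc16a7 were 10.15 ± 0.033 (SD, n = 5) in Tg and 10.15 ± 0.041 (SD, n = 5) in WT brain, and their difference of 0.0023 (95% confidence interval -0.081 to 0.086) did not pass the test (limma, unadjusted p = 0.952, adjusted p = 1; 0.0053 without WT replicate 2). Slc16a1 had a mean of 9.63 and a difference of -0.041 (-0.037 without WT replicate 2). Slc16a3 had a mean of 7.93, read 8.20 on WT replicate 2, 0.30 above the mean of the other WT arrays, and differed by -0.049 with and 0.012 without that array.

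Pyruvate enters the mitochondrion through the pyruvate carrier, of which Mpc1 is a subunit, and is then oxidised by pyruvate dehydrogenase. Mpc1 had a mean of 11.77, but WT replicate 2 read 11.44, 0.41 below the mean of the other WT arrays and the widest gap among the 30. Its difference was 0.0047 with that array and -0.078 without it. Pdha1 and Pdhb encode the alpha and beta subunits of the first enzyme of the pyruvate dehydrogenase complex. The log2 values of Pdha1 were 10.87, 10.71, 10.78, 10.80 and 10.80 in Tg and 10.79, 10.84, 10.84, 10.79 and 10.75 in WT brain, replicates 1 to 5. The lowest and the highest array were both Tg arrays. Pdha1 thus had means of 10.79 ± 0.058 (SD, n = 5) in Tg and 10.80 ± 0.040 (SD, n = 5) in WT brain. The difference was -0.012 (95% confidence interval -0.10 to 0.080; limma, unadjusted p = 0.779, adjusted p = 1), and -0.0022 without WT replicate 2. Pdhb was dimmer on all 10 arrays, with a mean of 8.90 and a difference of -0.012 (-0.037 without WT replicate 2).

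The pyruvate dehydrogenase kinases switch that complex off by phosphorylation. Pdk2 was the brightest, Pdk3 next and Pdk1, which hypoxia is known to induce, last on all 10 arrays. On the 5 Tg arrays Pdk2 read 11.30, 11.26, 11.36, 11.20 and 11.17, and on the 5 WT arrays 11.29, 11.09, 11.34, 11.27 and 11.25, in replicate order. WT replicate 2 was the lowest array and the other WT arrays lay inside the Tg range. This gave 11.26 ± 0.076 (SD, n = 5) in Tg and 11.25 ± 0.097 (SD, n = 5) in WT brain, a difference of 0.008 (95% confidence interval -0.11 to 0.13; limma, unadjusted p = 0.89, adjusted p = 1) that became -0.033 without WT replicate 2. Pdk1 read 9.08, 8.87, 9.03, 8.98 and 8.87 on Tg replicates 1 to 5 and 9.09, 9.09, 9.10, 9.00 and 8.92 on WT replicates 1 to 5. WT replicates 1, 2 and 3 were the highest arrays, Tg replicates 2 and 5 the lowest, and the groups overlapped. The means of Pdk1 were 8.97 ± 0.094 (SD, n = 5) in Tg and 9.04 ± 0.080 (SD, n = 5) in WT brain, and their difference of -0.074 (95% confidence interval -0.20 to 0.050) did not pass the test (limma, unadjusted p = 0.216, adjusted p = 1; -0.061 without WT replicate 2). Pdk3 had a mean of 10.16, with WT replicate 2 at 9.91, 0.32 below the mean of the other WT arrays, and a difference of 0.001 (-0.062 without WT replicate 2).

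WT replicate 2 was the highest of the 10 arrays for 10 of the 30 genes, where this held for 37.3% of all genes, and the lowest for 5, where this held for 16.3%. The 10 were Slc2a3, Pfkl, Pfkfb2, Pfkfb4, Aldoa, Pgam2, Eno2, Eno3, Pkm and Slc16a3. The 5 were Aldoc, Pgk1, Mpc1, Pdk2 and Pdk3. WT replicate 5 was the lowest array for 8 of the 30, where this held for 8.82% of all genes.

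**Figure D3:**
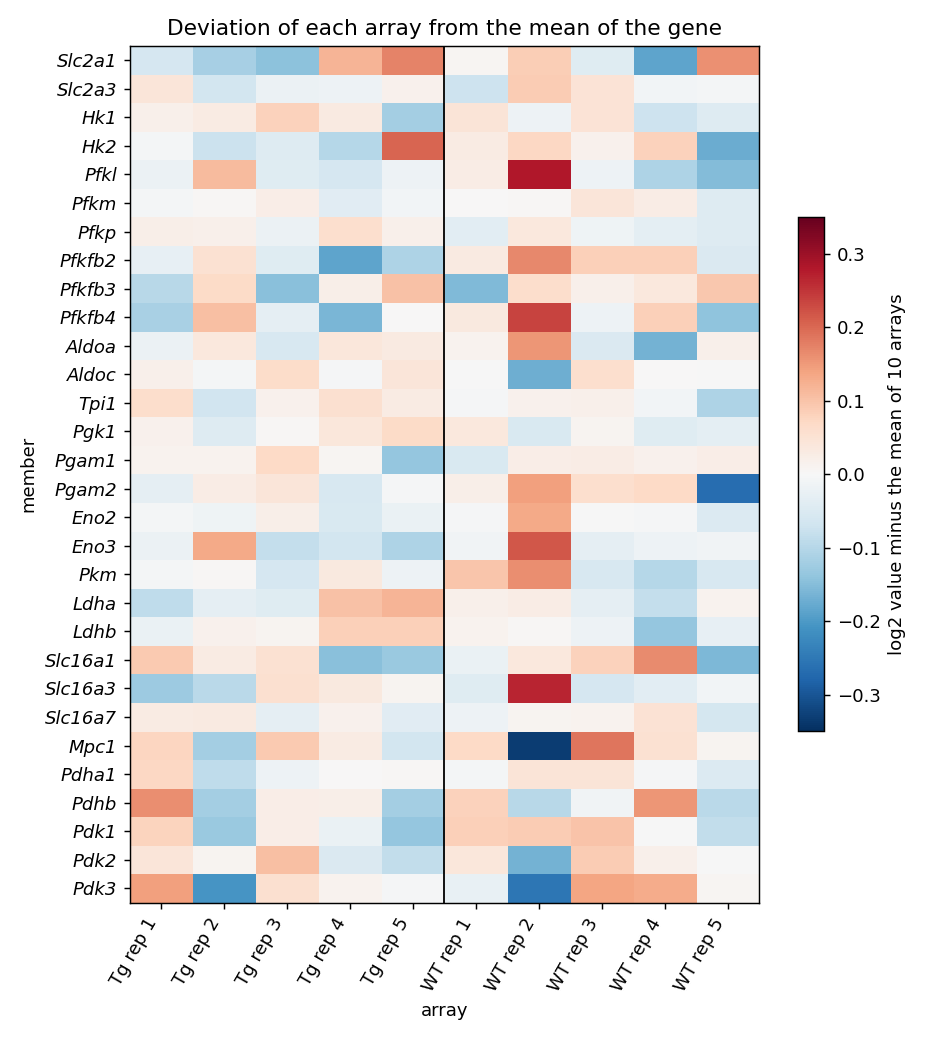
Deviation of each array from the mean of each gene over the 10 arrays, in log2 units by colour (red above, blue below), with the 30 genes as rows in pathway order and the 5 Tg and 5 WT arrays as columns, divided by a black line. The column of WT replicate 2 holds the strongest colours, red for Pfkl and Slc16a3 and blue for Mpc1, while in no row are the 5 Tg arrays all above or all below the 5 WT arrays.

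The ratio of isozymes within an array is not changed by a brightness shift common to the whole array. For the 19 pairs of genes at the same step, 0 had ratios that did not overlap between Tg and WT brain, with or without WT replicate 2. The Tg minus WT differences of the log2 ratio ran from -0.10 for Pfkfb2 to Pfkfb3 to 0.058 for Pfkfb3 to Pfkfb4. They ran, without WT replicate 2, from -0.090, again for Pfkfb2 to Pfkfb3, to 0.070 for Pfkl to Pfkm, while Pfkfb3 to Pfkfb4 gave 0.021. With all arrays Pfkl to Pfkm gave 0.001. The ratio of Pfkfb2 to Pfkfb3 was 0.60 ± 0.15 (SD, n = 5) in Tg and 0.70 ± 0.12 (SD, n = 5) in WT brain. WT replicate 2 held the highest or lowest ratio in 8 of the 19 pairs. In the ratio of Pdk1 to Pdk3 it lay 0.38 above the mean of the other WT arrays, and in that of Pfkl to Pfkm 0.35 above.

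**Figure D4:**
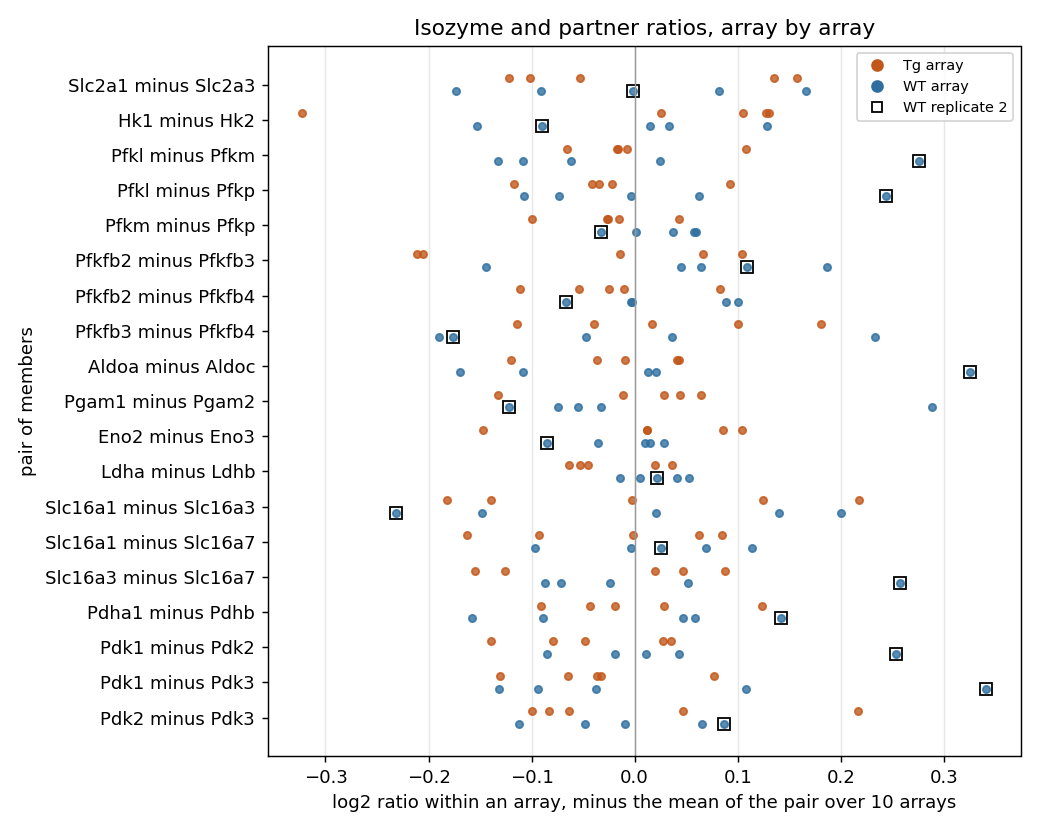
Log2 ratio of each of 19 pairs of genes at the same step on each array, minus the mean of the pair over the 10 arrays, in log2 units, with Tg in orange, WT in blue and WT replicate 2 boxed. Tg and WT points overlap in every pair, and the boxed point lies at an end of the row in 8 pairs, as in Aldoa minus Aldoc and Pdk1 minus Pdk3.

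Genes that border on this pathway were counted in 8 lists with 113 listed and 105 measured genes. By limma with Benjamini-Hochberg adjustment 0 of the 105 passed with all arrays and 0 without WT replicate 2, where 0.0451% and 0.0502% of all genes did. At an unadjusted p under 0.05 there was 1 with all arrays, with the higher mean in Tg, and 8 without WT replicate 2, where 1.98% and 10.8% of all genes did.

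That gene was Ldhc, the lactate dehydrogenase of the testis, among 14 measured of 17 other glycolysis enzymes. Its mean was 5.94 ± 0.076 (SD, n = 5) in Tg and 5.81 ± 0.097 (SD, n = 5) in WT brain, a dim probe set with a difference of 0.13 (limma, unadjusted p = 0.04, adjusted p = 1). Leaving out WT replicate 2 gave 0.16 (adjusted p = 0.407). Medians of the list differences are given beside that of all genes, -0.0034 with all arrays and 0.006 without WT replicate 2. The other glycolysis enzymes had a median of -0.0051 with all arrays and 0.019 without that array. For 8 of 8 gluconeogenesis enzymes the median was 0.027, and 0.079 without it. For 13 of 14 other hexose and monocarboxylate carriers it was 0.016, and 0.0032 without it. The list for the rest of the pyruvate dehydrogenase complex and its regulators had -0.038 and -0.055 over 8 of its 9 genes. The gene of that list without a value was Mpc1l. The 9 of 10 genes of the pentose phosphate pathway had 0.0002 and -0.020. The 17 of 18 genes of glycogen metabolism had -0.0062 and -0.025, the 19 of 20 of the citric acid cycle -0.0003 and -0.011, and the 17 of 17 hypoxia response genes outside glycolysis -0.0017 and 0.024. Leaving out WT replicate 2 thus turned the sign for the other glycolysis enzymes, the pentose phosphate pathway and the hypoxia response genes.

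In the other lists the gene of lowest p with all arrays had an adjusted p of 1 by limma in each case. Fbp1, the gluconeogenic fructose bisphosphatase, differed by 0.10 (0.11 without WT replicate 2). The urate and hexose carrier Slc2a9 differed by 0.089, and by 0.12 without that array (limma, unadjusted p = 0.00704, adjusted p = 0.407). Pdpr, a regulatory subunit of pyruvate dehydrogenase phosphatase, differed by -0.072 (-0.086 without it) and Rpia, ribose phosphate isomerase, by -0.10 (-0.090 without it). The differences of the phosphoglucomutase Pgm2, the succinate dehydrogenase subunit Sdhd and the histone demethylase Kdm3a were -0.075, 0.096 and -0.11, and -0.089, 0.078 and -0.13 without it. In 3 lists another gene, chosen after its values were seen, had the lowest p without WT replicate 2. These were Pck1, the gluconeogenic phosphoenolpyruvate carboxykinase, with 0.19 against 0.12 with all arrays (unadjusted p = 0.024, adjusted p = 0.408 by limma without that array), the pyruvate dehydrogenase kinase Pdk4 with -0.087 against -0.034, and the lactonase Pgls of the pentose phosphate pathway with 0.11 against 0.060.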

How the data were processed

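RNA was taken from whole brain with TRIzol and an RNeasy clean-up, and biotin-labelled for Affymetrix gene arrays, per the labels' protocols. Per the submitters' processing notes, the authors used Expression Console 1.1.2 to make the log2 expression values they deposited. How it corrected background and normalized arrays is not given in the sources used here, and the values were used as deposited. Of 35556 rows, 6612 platform controls (18.6%) were left out and 28944 probe sets tested: 21789 with 1 gene, 1621 with several and 5534 unnamed here. Symbols came from the platform annotation, updated by Entrez identifier to GRCm38.p6 for 21698 probe sets, and 91 kept the platform's symbol. Different probe sets of a gene were represented by the brightest.

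For each probe set limma 3.58.1 in R 4.3.3 tested Tg against WT (lmFit, then eBayes, no covariates), and p-values were adjusted by Benjamini-Hochberg over all 28944, with a threshold of 0.05. The step was tested on simulated data. Counts over all genes use the 19938 named genes. Marker and pathway lists were described by counts and medians. Promoter letters were searched in RefSeq sequences in Python 3.11.15. Figures were drawn with matplotlib 3.10.9.

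All 30 genes are named with their level. Values on every array are given for the 8 genes of lowest unadjusted p and for the brightest gene of each step with several, and of each pathway list the gene of lowest p is named. Other genes singled out for WT replicate 2 were chosen after their values were seen. Genes and lists were chosen with earlier results of these data known. Alternatives were array weights, a variance trend, quantile normalization, median centring, the mean of probe sets, filters on dim probe sets, the replicate number as a block and leaving out each array. A choice of probe sets that lie among rows of their own chromosome was added after seeing the data. Signal over background is not given, since no scanner file was used. Arrays have no read depth, and their number limits the precision.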

Additional observations from a re-analysis of the deposited data

Results flagged for a closer look

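Among the 60 groups of 5 arrays examined for the 30 genes, 9 held an array whose gap to its nearest neighbour took up more of the group's range than Dixon's 95% critical value allows, and so did 2 of the 38 groups of isozyme ratios. Chance gives such a gap in about 1 in 20 groups. WT replicate 2 accounted for 4 of the 11: it was the lowest WT array for Aldoc (13.02, others 13.19 to 13.25), and the highest for Eno2 (12.16, others 11.98 to 12.03), Eno3 (8.41, others 8.16 to 8.17) and Slc16a3 (8.20, others 7.87 to 7.92). WT replicate 5 was the lowest WT array for Hk2 (7.16, others 7.35 to 7.41) and for Tpi1 (12.01, others 12.10 to 12.13). WT replicate 1 was the lowest WT array for Pgam1 (11.83, others 11.90 to 11.91), and WT replicate 4 for Ldhb (11.55, others 11.65 to 11.69). Tg replicate 2 was the highest Tg array for Pfkl (10.21, others 10.04 to 10.08). The log2 ratio of Hk1 to Hk2 was lowest among Tg arrays on replicate 5 (4.86, others 5.21 to 5.31), and that of Pgam1 to Pgam2 was highest among WT arrays on replicate 5 (4.59, others 4.18 to 4.27).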

How the results depend on the processing

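In each of the 19 settings run beyond the reported one, 0 of the genes it measured passed the adjusted test. These were all 30 genes except under the filter to the upper 30% of probe sets (22 genes), that to the upper 60% (29) and the choice of probe sets on rows of their own chromosome (29). In the settings run for it the brightest gene of a step was the same at 11 of 11 steps. The number at an unadjusted p under 0.05 went from 1 to 0 with array weights and with quantile normalization, and ranged from 0 to 1 over leaving out single arrays. It stayed at 1 with the replicate number as a block, with 0 genes called. Same-numbered Tg and WT arrays had correlations of deviations of 0.0066, 0.33, 0.453, -0.472 and 0.097. The highest correlation of the same Tg arrays with a WT array of another number was 0.361, -0.0509, 0.419, 0.294 and 0.1. The labels do not say whether equal numbers mark pairs, and the arrays were not treated as pairs in the reported fit. The median difference moved from -0.011 to 0.0066 with quantile normalization, which moved the median of all genes by 0.0055, and lay between -0.017 and 0.0035 over leaving out single arrays. Array weights, the variance trend and the replicate block leave the values unchanged, so overlap of groups was not counted again under them.

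None of the sign changes below touches a called difference. With array weights the sign turned for Slc2a3 (0.0083), Pfkl (0.027), Pgam1 (0.0024), Pgam2 (0.0077), Mpc1 (-0.051), Pdha1 (0.0043), Pdk2 (-0.022) and Pdk3 (-0.0225). With quantile normalization it turned for Slc2a1 (0.0061), Pfkl (0.0116), Pfkfb3 (0.0061), Pgam1 (0.0072), Pdha1 (0.0035) and Pdhb (0.0122), with median centring for Pdk3 (-0.0001), and with the mean of probe sets for Hk1 (-0.033). With probe sets on rows of their own chromosome, an alternative chosen after seeing the data, it turned for Hk1 (-0.082) and Pgam1 (0.0039). Leaving out single arrays turned it for 18 genes, whose differences ranged from -0.0585 to 0.0276 for Slc2a1, -0.0385 to 0.0018 for Slc2a3, -0.0018 to 0.0484 for Hk1, -0.0619 to 0.0137 for Hk2, -0.0508 to 0.0576 for Pfkl, -0.0629 to 0.0127 for Pfkfb3, -0.0267 to 0.0534 for Aldoa, -0.0321 to 0.0194 for Pgam1, -0.0785 to 0.0244 for Pgam2 and -0.0463 to 0.0194 for Pkm. For Ldha they ranged from -0.0031 to 0.0486, for Slc16a3 from -0.0694 to 0.0123, for Slc16a7 from -0.0124 to 0.0152, for Mpc1 from -0.078 to 0.0522, for Pdha1 from -0.0316 to 0.0089, for Pdhb from -0.0541 to 0.0249, for Pdk2 from -0.0325 to 0.0315 and for Pdk3 from -0.0621 to 0.053. The cause of these changes was not tested.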
